A study of Mus musculus with 6 samples.

Results

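Umod and Egf are a pair of genes that mark the thick ascending limb, the segment of the nephron that reabsorbs salt without water. They were found by symbol among 57180 listed genes, and both were measured in every kidney library of the series, 6 in all. Kidneys came from wild-type male C57BL/6J mice that were 7 weeks old at purchase. The 3 nanoplastic mice were given cationic polystyrene nanoparticles by mouth at 200 mg/kg once daily for 6 weeks, and the 3 vehicle mice were given deionized water (0 mg/kg). Each library is 1 mouse and holds bulk RNA of kidney tissue, so fewer thick limb cells and less RNA per thick limb cell cannot be told apart. The single comparison of the design is nanoplastic against vehicle.

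Umod encodes uromodulin, also called Tamm-Horsfall protein, a glycoprotein tethered by a lipid anchor to the apical membrane of thick limb cells and cut free into the urine, where it polymerises into filaments. Egf encodes the membrane-bound precursor of epidermal growth factor, made in the thick limb and the distal convoluted tubule, whose released peptide binds the EGF receptor and promotes magnesium uptake by the distal convoluted tubule. Both transcripts are used as readouts of thick limb and distal tubule function, and both are known to decline in many kinds of kidney injury.

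Umod was lower in nanoplastic kidneys on average, and Egf differed little. Umod measured 3116 ± 247 CPM (the count's share of the library, scaled by TMM) in nanoplastic and 3904 ± 468 CPM in vehicle mice (SD, n = 3 each), a log2 fold change of -0.33 (SE 0.10). Egf measured 1923 ± 109.9 CPM in nanoplastic and 1995 ± 40.3 CPM in vehicle mice (SD, n = 3 each), a log2 fold change of -0.05 (SE 0.07). Neither passed the test over all genes, with Benjamini-Hochberg adjusted p values of 0.542 for Umod and 0.887 for Egf in edgeR's quasi-likelihood test.

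By library, Umod measured 3208, 3303 and 2836 CPM in nanoplastic mice 1, 2 and 3, and 3961, 4341 and 3410.0 CPM in vehicle mice 1, 2 and 3. All 3 nanoplastic values lay below all 3 vehicle values, with a narrow gap between nanoplastic mouse 2 and vehicle mouse 3. Over the 18092 genes tested, 12.9% had groups that did not overlap, and 6.32% did so with the lower values in nanoplastic mice. The unadjusted p of Umod was 0.00761, rank 242 of all genes, and 3.5% of genes were lower in nanoplastic mice at an unadjusted p under 0.05. The fitted change was -20.2% with a 95% interval from -31.4% to -7.13%. Among these 18092 genes, which passed a filter on low counts, 0 had an adjusted p under 0.05 with edgeR (0%) or limma-voom, although 1301 genes (7.19%) had an unadjusted p under 0.05 with edgeR. Over 31335 genes without that filter edgeR called 207 and DESeq2 55, and Umod was in neither set (adjusted p = 0.0611 with edgeR). With DESeq2 the adjusted p of Umod was 0.0508, at default settings that set low-count genes aside before adjustment.

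Egf measured 1991, 1982 and 1796 CPM in nanoplastic mice 1, 2 and 3, and 1949, 2025 and 2011 CPM in vehicle mice 1, 2 and 3. The groups overlapped, with nanoplastic mouse 3 alone below the other 5 libraries. Its fitted change was -3.60% with a 95% interval from -13.4% to 7.31%, so the interval leaves out a loss of Egf as large as the one fitted for Umod.

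**Figure D1:**
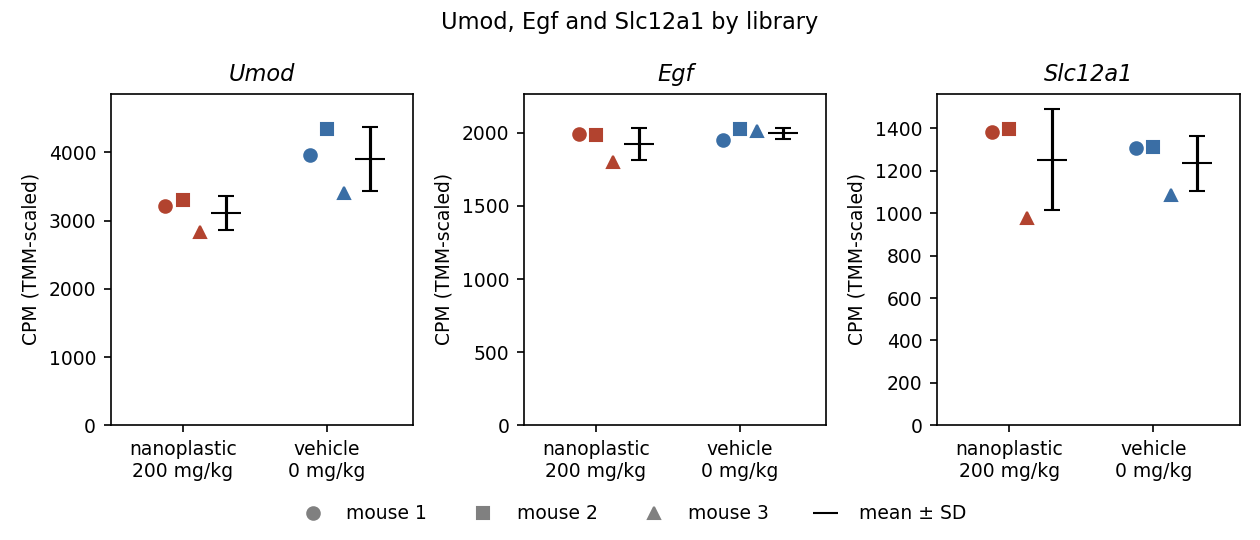
TMM-scaled CPM (vertical axis, from 0) of Umod, Egf and the thick limb salt transporter Slc12a1 in each of the 3 nanoplastic and 3 vehicle libraries, with the group mean and SD. Umod reached at most 3303 CPM in nanoplastic mice and at least 3410.0 CPM in vehicle mice, while the groups overlapped for Egf and Slc12a1.

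Both genes were among the most abundant of the kidney, so counting error was small beside the spread between mice. Umod held 54539 to 101651 counts in a library and ranked between 12 and 21 among all genes by count. Egf held 34544 to 50017 counts and ranked between 25 and 28. The coefficient of variation between mice was 7.92% in nanoplastic and 12.0% in vehicle mice for Umod, against a counting error of at most 0.428% in any library. For Egf it was 5.71% in nanoplastic and 2.02% in vehicle mice, against a counting error of at most 0.538%. Umod was one of the more variable abundant genes. Its within-group SD in log2 CPM was 0.15, and 88.6% of the 1613 genes with a mean of at least 100 CPM had a smaller one. That of Egf was 0.06, with 27.1% of those genes below it.

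Per length of transcript, Umod was the more abundant of the pair in every library. In TPM (a share of transcripts, scaled by length and library), Umod measured 749, 766 and 583 in nanoplastic mice 1, 2 and 3, and 838, 872 and 778 in vehicle mice 1, 2 and 3. Egf measured 311, 323 and 270.4 TPM in nanoplastic mice 1, 2 and 3, and 288, 286 and 309 TPM in vehicle mice 1, 2 and 3. Among 48 genes of the thick limb, macula densa and distal convoluted tubule ordered by mean TPM, Umod held rank 2 and Egf rank 3. Fxyd2, a regulatory subunit of the sodium pump that is made along much of the nephron, held rank 1. The ranges of these 3 genes over the 6 libraries did not overlap. Atp1b1, the beta subunit of the pump, followed at 182 to 222 TPM, and Slc12a1, the salt transporter of the thick limb, came next at 117 to 189 TPM, and their ranges overlapped.

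On the TPM scale Egf was at 0.03 in log2 fold change with limma on log2(TPM + 1), where the median over all genes was 0.04, against 0.01 in the main test, so Egf lay below the median of all genes on both scales. With TPM rescaled without the 7SL genes Rn7s1 and Rn7s2 it was at -0.0025. TPM also divides by a length weighted over transcripts. The files list 9 transcripts for Egf, of 478 to 4761 bases, and the abundance-weighted length was between 3464 and 3778 bases, below the 4761 bases of its longest coding transcript. The 6 transcripts listed for Umod run from 419 to 2625 bases, and the weighted length stayed between 2568 and 2605 bases, close to its 2 longest, both coding. Gene counts do not depend on this division among transcripts of 1 gene.

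Within a library, the ratio of 2 genes does not depend on how libraries are scaled. The ratio of Umod to Egf counts was 1.61, 1.67 and 1.58 in nanoplastic mice 1, 2 and 3, and 2.03, 2.14 and 1.70 in vehicle mice 1, 2 and 3. The groups did not overlap, and vehicle mouse 3 lay closest to the nanoplastic mice. The difference in mean log2 ratio was -0.27 (exact permutation test over the 6 libraries, two-sided p = 0.1, the smallest p that 3 against 3 allows; adjusted over 3 ratios, p = 0.15). In TPM the ratio averaged 2.31 ± 0.136 in nanoplastic and 2.83 ± 0.274 in vehicle mice (SD, n = 3 each).

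Slc12a1, the sodium, potassium and chloride cotransporter that drives salt uptake in the thick limb, gave a second yardstick. It measured 1383, 1396 and 976 CPM in nanoplastic mice 1, 2 and 3, and 1306, 1313 and 1086 CPM in vehicle mice 1, 2 and 3. The ratio of Umod to Slc12a1 counts was 2.32, 2.37 and 2.91 in nanoplastic mice 1, 2 and 3, and 3.03, 3.31 and 3.14 in vehicle mice 1, 2 and 3. Here too all nanoplastic values were below all vehicle values, with nanoplastic mouse 3 closest to the vehicle mice. The difference in mean log2 ratio was -0.33 (exact permutation test, two-sided p = 0.1, adjusted p = 0.15). The ratio of Egf to Slc12a1 was 1.44, 1.42 and 1.84 in nanoplastic mice 1, 2 and 3, and 1.49, 1.54 and 1.85 in vehicle mice 1, 2 and 3. These groups overlapped, and the difference of -0.06 was within their spread (exact permutation test, two-sided p = 0.5, adjusted p = 0.5). It changed sign without vehicle mouse 3 (0.04) or nanoplastic mouse 2 (0.01).

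**Figure D2:**
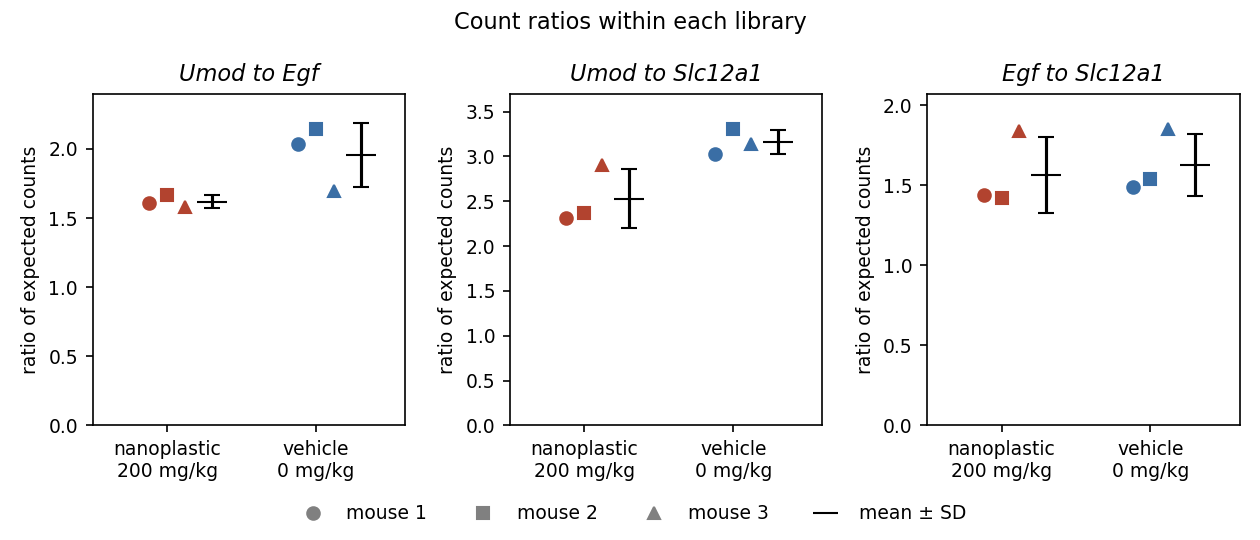
Ratio of expected counts (vertical axis, from 0) of Umod to Egf, Umod to Slc12a1 and Egf to Slc12a1 in each of the 3 nanoplastic and 3 vehicle libraries, with the group mean and SD. Both Umod ratios are lower in every nanoplastic library than in any vehicle library, and the Egf to Slc12a1 ratios overlap.

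Over the 6 libraries, log2 CPM of Umod and Egf had a Pearson r of 0.65 (exact permutation p = 0.175) and a Spearman rho of 0.60 (exact permutation p = 0.242). Neither p was under 0.05, before or after adjustment over 3 pairs (adjusted p = 0.263 and 0.725). Without vehicle mouse 2 and nanoplastic mouse 3, the 2 libraries farthest from the Umod median, r was -0.77. Leaving them out takes away the highest and lowest Umod values, so the change in r cannot decide whether the 2 genes vary together. On log2 CPM by library size alone r was 0.382, and on log2 TPM 0.377. For Umod and Slc12a1 r was 0.50 and rho 0.14 (exact permutation p = 0.294 and 0.803, adjusted p = 0.294 and 0.803), with r at -0.14 without the 2 farthest libraries. For Egf and Slc12a1 r was 0.68 and rho 0.31 (exact permutation p = 0.117 and 0.564, adjusted p = 0.263 and 0.803), with r at -0.52 without them. As deviations from group means, r was 0.52 for Umod and Egf, 0.85 for Umod and Slc12a1 and 0.78 for Egf and Slc12a1. No p was computed for these. Nanoplastic mouse 3 held the lowest value of all 3 genes. Among vehicle mice, mouse 3 was lowest for Umod and Slc12a1 but not for Egf.

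The other genes listed for the thick limb were centred near 0, though some, such as Fxyd2, are made in other segments too. Of 30 genes counted in 4 thick limb lists, 29 passed the count filter, 15 with a log2 fold change above 0 and 14 below, and 0 had an adjusted p under 0.05 in edgeR's quasi-likelihood test. Their median log2 fold change was 0.00, against 0.01 over all genes tested. The transcription factor list also covers distal segments.

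Among the salt transport genes, 9 of 9 lay between -0.08 and 0.09 in log2 fold change. Kcnj1, the potassium channel that recycles potassium into the lumen, was at -0.04 (SE 0.12), and Bsnd, an accessory subunit of basolateral chloride channels, was at 0.00 (SE 0.10). The lowest p of this list belonged to the pump subunits Fxyd2, at -0.08 (SE 0.07), and Atp1b1, at -0.07 (SE 0.07). Of the paracellular genes, tied to the path of ions between cells, Cldn16 and Cldn19 were at -0.03 (SE 0.15) and -0.09 (SE 0.16). Cldn10 was at -0.11 (SE 0.09) and Cldn3 at 0.25 (SE 0.16). Cldn14 was below the count filter. Casr, the calcium-sensing receptor of the thick limb, was at -0.09 (SE 0.08), and Calcr, the calcitonin receptor, at 0.64 (SE 0.40) on under 1 CPM in both groups. Of the transcription factors, Irx1 was at -0.16 (SE 0.10) and Foxq1 at 0.39 (SE 0.26), which was 0.01 without nanoplastic mouse 1 and 0.59 without nanoplastic mouse 3. Of 4 macula densa genes, 0 had an unadjusted p under 0.05. The lowest p belonged to Robo2 at -0.15 (SE 0.09) and Ptgs2, the inducible cyclooxygenase, at 0.85 (SE 0.53). Ptgs2 had a mean under 1 CPM in both groups, and was at 0.22 without nanoplastic mouse 1 and 1.35 without vehicle mouse 2.

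**Figure D3:**
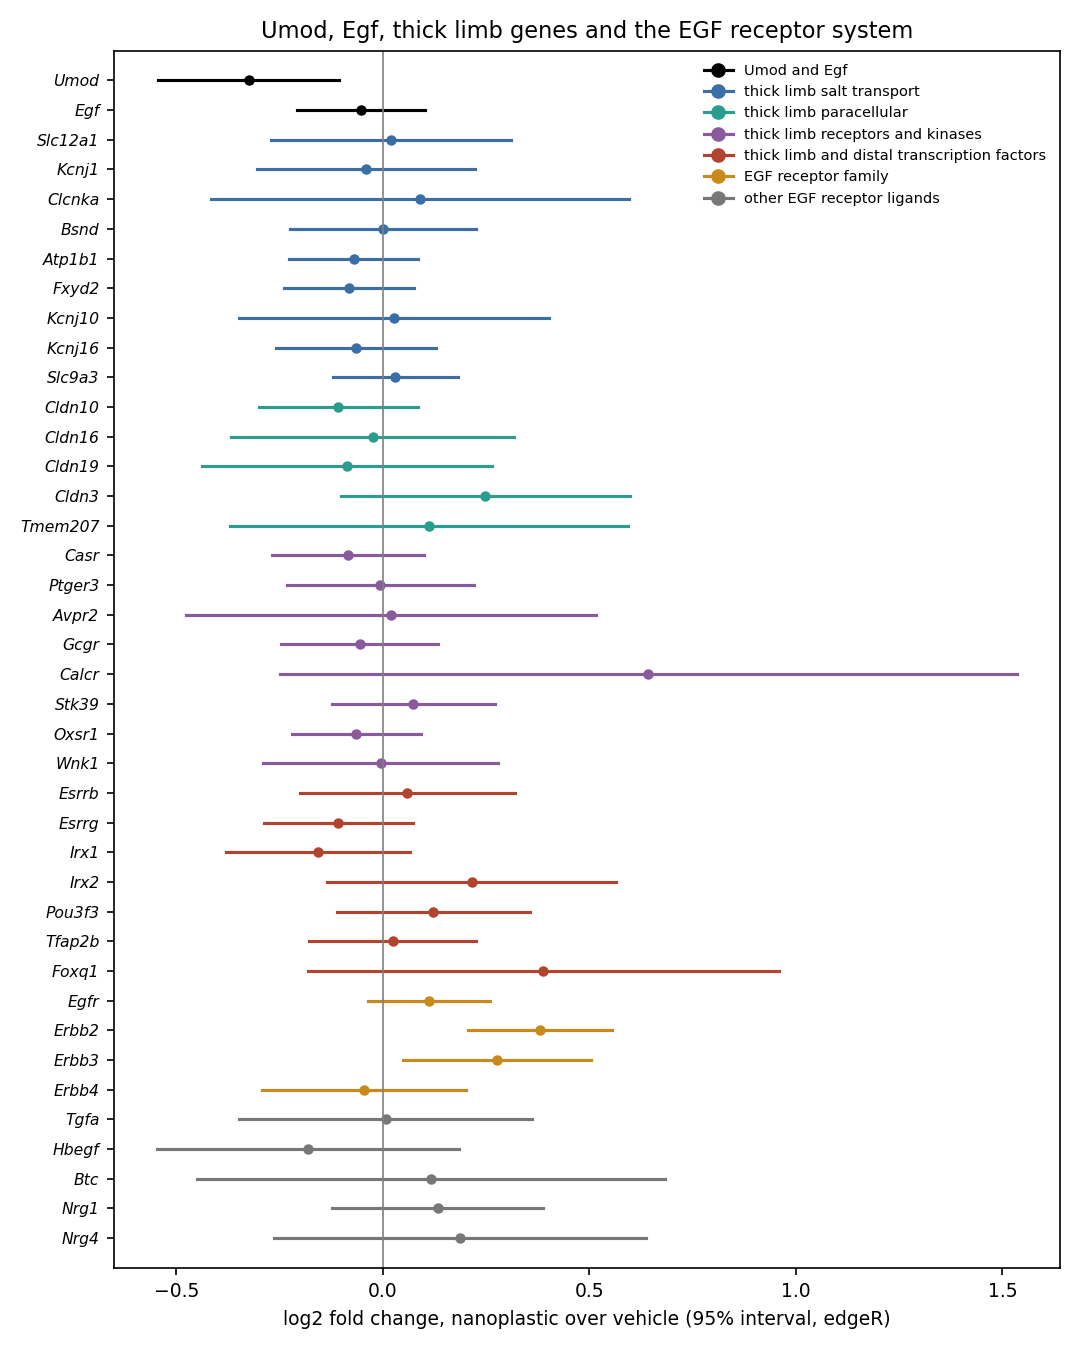
Log2 fold change of nanoplastic over vehicle (horizontal axis) with its 95% interval from edgeR for Umod, Egf, the thick limb genes counted here, the EGF receptor family and the other receptor ligands, coloured by list. The interval of Umod lies below 0 and those of Erbb2 and Erbb3 above 0, all without adjustment, while the interval of Egf covers 0.

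Of the genes that handle uromodulin after translation, Hpn, the protease hepsin that cuts uromodulin from the membrane, measured 303 ± 27.7 CPM in nanoplastic and 291 ± 19.5 CPM in vehicle mice (SD, n = 3 each), with a log2 fold change of 0.06 (SE 0.08). Of the 9 genes for its release, sorting and lipid anchor, 0 had an unadjusted p under 0.05. The lowest p belonged to Piga, an enzyme of the first step of anchor synthesis, at -0.26 (SE 0.14), and to Gpaa1, a subunit of the complex that attaches the anchor, at 0.11 (SE 0.07). Piga was at -0.40 without vehicle mouse 1 (unadjusted p = 0.0139) and at -0.09 without vehicle mouse 2.

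Gp2, the closest relative of Umod and its neighbour on the chromosome, encodes another lipid-anchored glycoprotein with a zona pellucida domain. It measured 2.92, 3.84 and 2.704 CPM in nanoplastic mice 1, 2 and 3, and 4.44, 5.81 and 4.04 CPM in vehicle mice 1, 2 and 3. These values rest on 52 to 134 counts in a library. The groups did not overlap, as in the 6.32% of all genes whose nanoplastic values were all the lower ones, and the direction was that of Umod. The log2 fold change was -0.59 (SE 0.20, unadjusted p = 0.0158, edgeR adjusted p = 0.596), where 3.5% of all genes were lower at an unadjusted p under 0.05. The unadjusted p was 0.0805 without vehicle mouse 2 and 0.0509 without nanoplastic mouse 3. Of 7 genes of this family, 3 passed the count filter. The others were Eng, an endothelial co-receptor, at -0.15 (SE 0.07), and Tgfbr3, another co-receptor, at 0.13 (SE 0.14).

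On the Egf side, 0 of the receptors, ligands, sheddases and signalling partners had an adjusted p under 0.05. In the receptor family, 2 of 4 genes had an unadjusted p under 0.05, both higher in nanoplastic mice, against 3.69% of all genes. Erbb2, a receptor that signals by pairing with the others, measured 50.6, 49.6 and 48.2 CPM in nanoplastic mice 1, 2 and 3, and 41.9, 34.8 and 37.3 CPM in vehicle mice 1, 2 and 3. Its groups did not overlap, as in the 6.54% of all genes whose nanoplastic values were all the higher ones, with a log2 fold change of 0.38 (SE 0.08, unadjusted p = 0.000605, edgeR adjusted p = 0.318) and values between 0.32 and 0.46 with each library left out. Erbb3, a neuregulin receptor, measured 176, 203 and 163 CPM in nanoplastic mice 1, 2 and 3, and 169, 132 and 147 CPM in vehicle mice 1, 2 and 3. Its groups overlapped, with a log2 fold change of 0.28 (SE 0.10, unadjusted p = 0.0215, edgeR adjusted p = 0.620), and the unadjusted p was above 0.05 without nanoplastic mouse 2, vehicle mouse 2 or vehicle mouse 3. Egfr, the receptor that Egf binds, was at 0.11 (SE 0.07) and Erbb4 at -0.05 (SE 0.11).

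**Figure D4:**
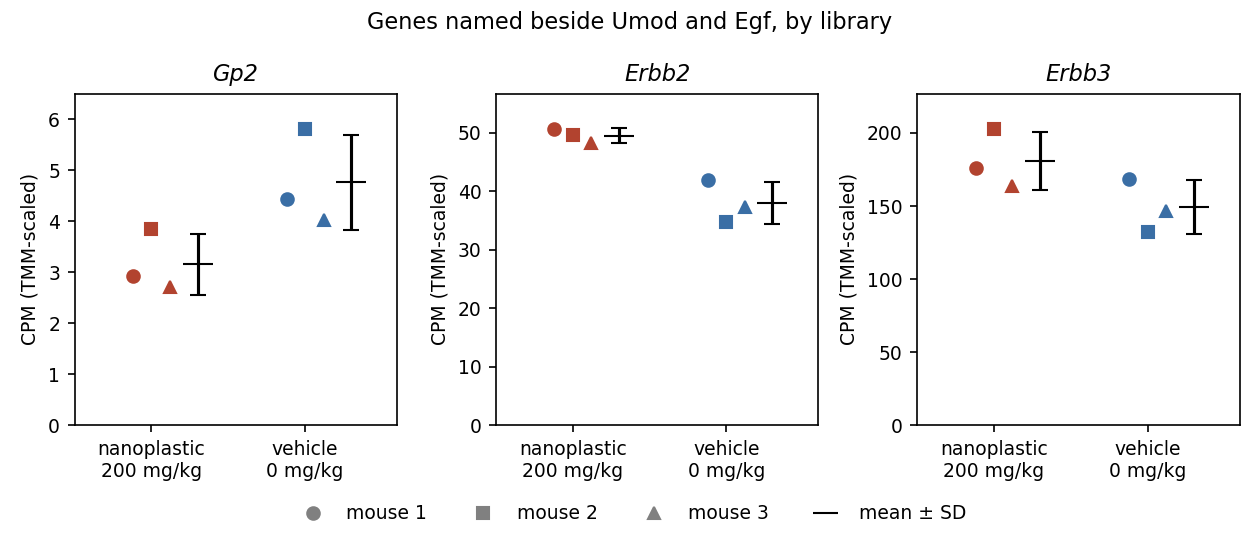
TMM-scaled CPM (vertical axes, from 0) of Gp2, Erbb2 and Erbb3 in each of the 3 nanoplastic and 3 vehicle libraries, with the group mean and SD. Erbb2 is higher and Gp2 lower in every nanoplastic library than in any vehicle library, while the Erbb3 groups overlap.

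Of 8 other ligands of the receptor family, 5 passed the count filter and 0 had an unadjusted p under 0.05. Nrg1, a neuregulin, was at 0.13 (SE 0.12) and Hbegf, the heparin-binding ligand, at -0.18 (SE 0.16). Areg, Ereg and Epgn were below the filter. Among the sheddases, Adam17, a protease that frees several of these ligands, measured 40.9 ± 0.792 CPM in nanoplastic and 45.9 ± 0.999 CPM in vehicle mice (SD, n = 3 each). Its groups did not overlap, as in the 6.32% of all genes whose nanoplastic values were all the lower ones (log2 fold change -0.17, SE 0.06, unadjusted p = 0.0235, edgeR adjusted p = 0.627). The unadjusted p was 0.0505 without nanoplastic mouse 2, 0.0588 without nanoplastic mouse 3 and 0.0689 without vehicle mouse 2. Adam10, another such protease, was at -0.07 (SE 0.06), also with groups that did not overlap and the lower values in nanoplastic mice. Rhbdf2, of the same list, was at 0.11 (SE 0.11), and its groups did not overlap in the other direction, as in 6.54% of all genes. That made 3 of the 4 genes of the shedding list with groups that did not overlap, against 12.9% of all genes. Of 10 adaptors and inhibitors, Spry4, an inhibitor of receptor signalling, had an unadjusted p under 0.05, at -0.34 (SE 0.15), where 3.5% of all genes were lower at that threshold. Its unadjusted p was above 0.05 in 4 of the 6 fits with a library left out (0.114 to 0.173), those without nanoplastic mouse 1 or 2 or vehicle mouse 2 or 3.

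In the distal convoluted tubule, where Egf is also made, 11 of 12 genes passed the filter, 7 above and 4 below 0. Slc12a3, the thiazide-sensitive cotransporter, was at 0.06 (SE 0.15), and Trpm6, the magnesium channel that EGF stimulates, at 0.16 (SE 0.12). At an unadjusted p under 0.05, 3.69% of all genes were higher and 3.5% lower in nanoplastic mice. In this list Emx1, a homeobox factor, was higher at 0.19 (SE 0.08) and Calb1, a calcium-binding protein, lower at -0.27 (SE 0.10) at that threshold. Each had an unadjusted p above 0.05 in 4 of the 6 fits with a library left out, from 0.0658 to 0.0902 for Emx1 and from 0.0680 to 0.0817 for Calb1. Without vehicle mouse 3 and nanoplastic mouse 1 the list stood at 6 higher and 0 lower, where 5.4% of all genes were higher and 4.44% lower. Its median log2 fold change was then 0.26, against 0.11 in all 6 libraries and 0.00 over all genes in those 4. Without nanoplastic mouse 3 it stood at 0 higher and 3 lower, where 5% of all genes were higher and 4.29% lower, and the median was -0.03.

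Some of the libraries held more RNA of other tissues. The summed CPM of 7 adipocyte markers was 110.4, 0.125 and 0.104 in nanoplastic mice 1, 2 and 3, and 0.156, 0.867 and 28.1 in vehicle mice 1, 2 and 3. The sum of 10 collecting duct markers was 418, 289 and 239.7 CPM in nanoplastic mice 1, 2 and 3, and 252, 246 and 226 CPM in vehicle mice 1, 2 and 3, and nanoplastic mouse 1 also had the highest sum of 6 urothelial markers. The sums of 12 proximal tubule markers ranged from 39329 to 46877 CPM in nanoplastic and from 45415 to 47981 CPM in vehicle mice. The sum of 8 macrophage markers was 100.95, 107 and 101 CPM in nanoplastic mice 1, 2 and 3, and 121, 117 and 110.3 CPM in vehicle mice 1, 2 and 3. This sum was lower in every nanoplastic library, as Umod was. All 8 had a log2 fold change below 0, against 8695 of the 18092 genes tested. Groups did not overlap for 1 of the 8, lower in nanoplastic mice, against 6.32% of all genes. At an unadjusted p under 0.05 in edgeR 1 of the 8 (Adgre1) was lower, against 3.5% of all genes. The sum of 7 stromal markers was 348, 272 and 272 CPM in nanoplastic mice 1, 2 and 3, and 406, 381 and 322 CPM in vehicle mice 1, 2 and 3. These sums overlapped, but 4 of the 7 markers had groups that did not, with the lower values in nanoplastic mice, against 6.32% of all genes. A log2 fold change below 0 was seen in 7 of 7, against 8695 of the 18092 genes tested. Of these 7, Pdgfra at -0.0016 (SE 0.18), Pdgfrb at -0.06 (SE 0.10) and Dcn at -0.23 (SE 0.13) had groups that overlapped. At an unadjusted p under 0.05 in edgeR 3 stromal markers were lower, against 3.5% of all genes. The collagen genes Col1a1, at -0.69 (SE 0.10), and Col3a1, at -0.72 (SE 0.10), held ranks 1 and 2 of all genes by p, with an edgeR adjusted p of 0.176 each. The 6 markers of medullary osmolyte handling and the thin limb summed to 700.02 to 1111 CPM in nanoplastic and 747 to 902 CPM in vehicle mice. Of the 6 log2 fold changes 5 were above 0, against 9397 of the 18092 genes tested. Nanoplastic mouse 1 was the highest library for Akr1b3, Cryab, Slc6a12 and Slc14a2, but not for Slc6a6 or Slc5a3. For Akr1b3 and Cryab, nanoplastic mice 2 and 3 lay within or below the vehicle range. Higher in nanoplastic mice at an unadjusted p under 0.05, against 3.69% of all genes, were 1 of these 6 (the taurine transporter Slc6a6, at 0.39, SE 0.10), 2 of 10 collecting duct markers (the water channels Aqp4, at 1.02, SE 0.23, and Aqp3, at 0.23, SE 0.08) and 1 of 9 intercalated cell markers (Aqp6, at 0.57, SE 0.15). The part of these other cell types in the lower Umod was not tested. Sums of intercalated cell, podocyte and endothelial markers overlapped between the groups. Without nanoplastic mouse 1 the log2 fold change of Umod was -0.34, and without it and vehicle mouse 3 it was -0.43 (unadjusted p = 0.000375, edgeR adjusted p = 0.108). That of Egf was -0.08 and -0.07. In the list of 10 tubular injury genes, 7 passed the filter, with Clu lower at -0.36 (SE 0.11) and Krt8 higher at 0.16 (SE 0.06) at an unadjusted p under 0.05, where 3.5% of all genes were lower and 3.69% higher. The p of Krt8 was 0.0958 without nanoplastic mouse 2 and 0.102 without vehicle mouse 3, and that of Clu was 0.0578 without vehicle mouse 3 and nanoplastic mouse 1 together. Havcr1, the kidney injury molecule, was at -0.04 (SE 0.45).

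The genes most like each member were those with the smallest root mean square difference between profiles of log2 CPM over the 6 libraries, each profile centred on its mean, among 8754 named protein-coding genes with a mean of at least 10 CPM. For Umod these were Emilin1, Cnn2, Khdrbs3, Rps6ka6 and Ptprc, at 0.06 to 0.07 log2 units. Egf stood at 0.17 from Umod, rank 1548 in closeness, and Slc12a1 at rank 3263. For Egf the closest were Vapa, Ppp3ca, Ehbp1, Uimc1 and Chmp1b, at 0.01 to 0.02 log2 units. Their profiles, like that of Egf, were flat but for a lower value in nanoplastic mouse 3.

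**Figure D5:**
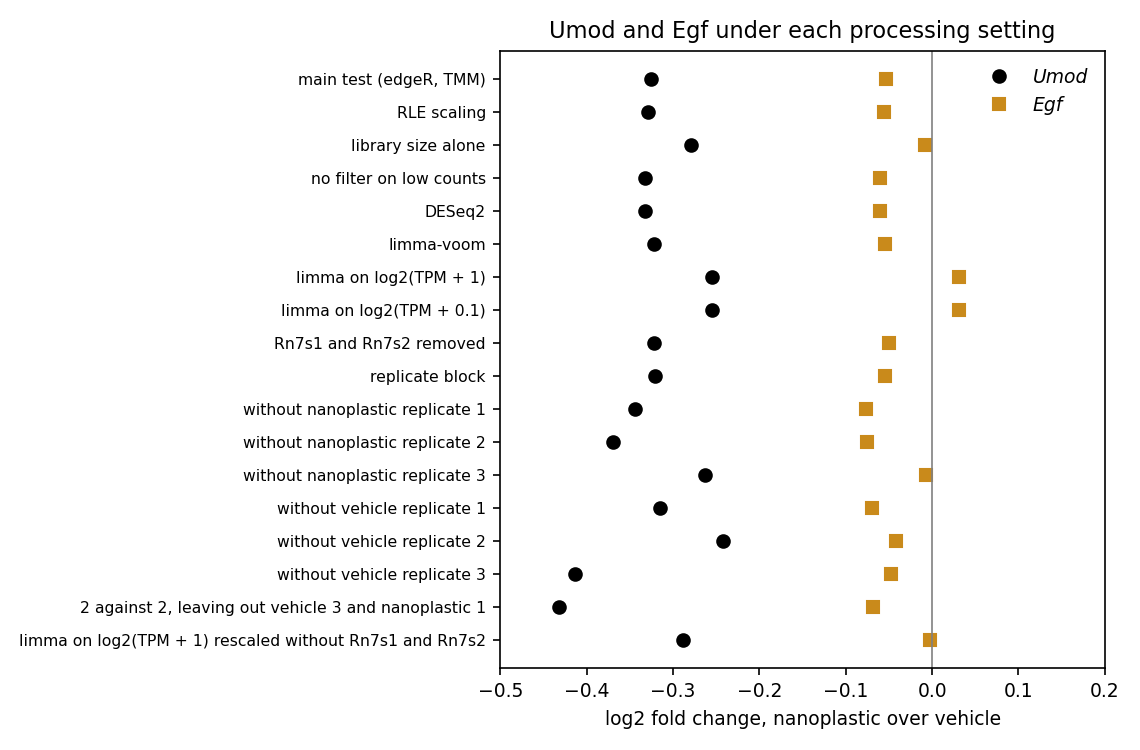
Log2 fold change of nanoplastic over vehicle (horizontal axis) of Umod (circles) and Egf (squares) under the main test and each of 17 other settings. Umod stayed between -0.43 and -0.24, and Egf between -0.08 and 0.03, on the positive side under 2 settings that used TPM.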

How the data were processed

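Each library has its own RSEM table, in which the authors deposited expected counts (not normalized), TPM and FPKM for every gene, per the file headers. FPKM as deposited by the authors was not used. The submitters' processing notes name RSEM 1.3.3, STAR 2.7.9a, Trim Galore 0.6.6, FastQC and the build GRCm39. The annotation release and library strand are not given in the sources used here. Whether the counts keep overlapping antisense genes apart is therefore not known. TPM as deposited by the authors is affected by the 7SL genes Rn7s1 and Rn7s2, which took 55.5% to 59.4% of it.

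Symbols came from GENCODE vM21 on another build, 51884 by gene ID and 762 by transcript ID. Libraries held 19408534 to 26292760 expected counts. Rounded counts that passed filterByExpr were TMM-scaled, and edgeR 4.0.16 in R 4.3.3 tested group alone by quasi-likelihood, with Benjamini-Hochberg adjustment over 18092 genes and a threshold of 0.05. SE is the log2 fold change over the root of F. Alternatives used DESeq2 1.42.0, limma 3.58.1 and left-out libraries. The code was tested on simulated counts. The members and the 23 gene lists were chosen with earlier results of these data known. Named from each pathway list were members with an unadjusted p under 0.05, otherwise the 2 of lowest p, and a fixed set of genes. Some list genes are not reported here and were left out of the lists' counts after their values were seen. Counts of genes at an unadjusted p under 0.05 are descriptions. The labels describe separate mice. The reads carry no molecular identifiers, and counting errors cover counting only.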

Additional observations from a re-analysis of the deposited data

How the results depend on the processing

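Umod stayed below 0 under all 17 alternatives, from -0.43 to -0.24, with an adjusted p under 0.05 in 0 of them (0.0508 to 0.999). With each library left out it ran from -0.41 to -0.24, and the unadjusted p was 0.0539 without vehicle mouse 2, 0.0629 with limma on log2(TPM + 1) and 0.1165 with log2(TPM + 0.1). Egf ran from -0.08 to -0.01 with each library left out, and was above 0 only with limma on TPM, at 0.0314 with a pseudocount of 1 and 0.0315 with 0.1. Rescaled without Rn7s1 and Rn7s2, a setting chosen after seeing the data, TPM gave -0.29 for Umod and -0.0025 for Egf. Genes with an adjusted p under 0.05 numbered 0 in the main test, 207 without a filter on low counts (Umod adjusted p = 0.0611), 55 with DESeq2, 27 without vehicle mouse 3 and nanoplastic mouse 1, and 0 to 5 with each library left out. The 207 were counted over 31335 genes, which include those below the filter. DESeq2 was fitted to as many genes, but its default settings set low-count genes aside before adjustment.

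With each library left out, the difference in log2 ratio ran from -0.37 to -0.20 for Umod to Egf, from -0.43 to -0.27 for Umod to Slc12a1 and from -0.18 to 0.0359 for Egf to Slc12a1, which was 0.0916 without vehicle mouse 3 and nanoplastic mouse 1 together. The cause was not tested. Counts over the gene lists with libraries left out were also added after seeing the data. As deviations from group means the correlation was 0.52 for Umod and Egf, 0.85 for Umod and Slc12a1 and 0.78 for Egf and Slc12a1.

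Same-numbered mice of the groups deviated with correlations of 0.04, -0.02 and 0.10 over genes. Pairs of unlike number ran from -0.12 to 0.08. With 3 mice per group these values cannot decide whether same-numbered mice shared anything beyond a number. With the replicate number as a block, Umod was at -0.32, Egf at -0.05, 0 genes were called, and the ratio differences were -0.27, -0.33 and -0.06 (exact sign-flip p = 0.25 each, the smallest 3 pairs allow).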

Other observations

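The coding genes next to Umod and Egf by position in RefSeq were looked up after the values of Gp2 were seen. Beside Umod, Gp2 on one side is described above, and Pdilt, a testis-type member of the protein disulfide isomerase family on the other side, measured 3.25 ± 0.354 CPM in nanoplastic and 3.16 ± 0.283 CPM in vehicle mice (SD, n = 3 each), a log2 fold change of 0.04 (SE 0.18). Acsm5, the next gene after Pdilt and a mitochondrial acyl-CoA synthetase, measured 131.0 ± 13.1 CPM in nanoplastic and 125 ± 9.73 CPM in vehicle mice (SD, n = 3 each), a log2 fold change of 0.06 (SE 0.09). Beside Egf, Elovl6, a fatty acid elongase, was at 0.30 (SE 0.16) and Enpep, the brush border aminopeptidase that cleaves angiotensin, at -0.07 (SE 0.06). Of the 6 neighbours that passed the count filter, Gp2 alone had an unadjusted p under 0.05 (0.0158, and above 0.05 without vehicle mouse 2 or nanoplastic mouse 3), against 7.19% of all genes, and 0 had an adjusted p under 0.05 in edgeR's quasi-likelihood test.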
